A study of Mus musculus with 8 samples.

Results

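RNA levels of 10 genes for myeloid C-type lectin receptors were followed in bone-marrow monocytes of mice, sorted as Ly6C-high (classical) cells; they are 10 of the 13744 genes in the deposited table. The genes were taken by name: Clec4n, Clec4d, Clec4e, Clec4a1, Clec4a2, Clec4a3, Clec7a, Clec12a, Clec10a and Cd209a. All 10 had a row and all 10 passed the filter of a mean of at least 1 CPM (read counts per 1e6), with 12752 genes tested in all. The 8 libraries came from 4 genotypes with 2 libraries each: wild type, Bcl6 cKO (a conditional knockout of the transcriptional repressor Bcl6), Irf2 KO (lacking the interferon regulatory factor Irf2) and Nr4a1 KO (lacking the nuclear receptor Nr4a1). The labels name no treatment, age, strain, Cre driver or deleted exons, and whether a genotype's 2 libraries stand for 2 animals is not stated, so p-values measure the spread between these libraries, which may be technical.

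C-type lectin receptors are surface proteins with which myeloid cells recognise sugars and lipids on microbes and on damaged or dying cells. Clec4n (Dectin-2), Clec4d (MCL) and Clec4e (Mincle) bind fungal mannans or mycobacterial glycolipids and signal through the adaptor Fcer1g (the FcR gamma chain), the kinase Syk and the adaptor Card9. Clec7a (Dectin-1) binds fungal beta-glucan and reaches Syk through its own cytoplasmic tail. Clec4a2 (DCIR) and Clec12a carry inhibitory motifs in their tails, and Clec12a recognises uric acid crystals. Clec10a (MGL1) binds galactose-type sugars, and Cd209a is a mouse relative of human DC-SIGN that is used as a marker of monocyte-derived dendritic cells.

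On mouse build GRCm38 (mm10), 6 of the genes lie in a single cluster on chromosome 6: Clec4a1 (chr6:122921848-122934619), Clec4a3 (chr6:122952515-122969875), Clec4a2 (chr6:123106428-123143999), Clec4n (chr6:123229843-123247021), Clec4d (chr6:123262111-123275265) and Clec4e (chr6:123281789-123289870, minus strand). Clec4d starts 15.09 kb after the end of Clec4n, and 6.523 kb separate Clec4d from Clec4e. Clec12a (chr6:129342691-129365303) and Clec7a (chr6:129461591-129472779, minus strand) lie further along the same chromosome, 96.29 kb apart. Clec10a is at chr11:70156197-70170834 and Cd209a at chr8:3743397-3748984 on the minus strand.

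RefSeq promoter windows (GRCm38.p6) were at hand for 8 of the 10 genes, not for Clec4n and Clec10a. The 250 bases before the annotated start are shown for 4 of them because they stand for the patterns described here: Clec4a2 and Clec12a kept their call in Irf2 KO under all 19 alternatives, Cd209a had the widest fall there, and Clec7a stayed within the wild type range. Each is written 5' to 3' on the strand of its gene, and capitals mark a motif match. The RefSeq table uses its own start sites, and the Clec4a2 and Clec12a windows lie inside the GENCODE gene spans given above. The windows are chr6:123122440-123122689 (plus strand), chr6:129349994-129350243 (plus), chr8:3748985-3749234 (minus) and chr6:129472780-129473029 (minus).
Clec4a2: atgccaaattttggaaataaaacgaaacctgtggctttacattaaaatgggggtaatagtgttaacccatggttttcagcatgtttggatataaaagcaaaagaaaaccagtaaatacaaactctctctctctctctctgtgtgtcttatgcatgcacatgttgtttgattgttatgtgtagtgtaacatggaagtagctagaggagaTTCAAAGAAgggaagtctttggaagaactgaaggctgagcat
Clec12a: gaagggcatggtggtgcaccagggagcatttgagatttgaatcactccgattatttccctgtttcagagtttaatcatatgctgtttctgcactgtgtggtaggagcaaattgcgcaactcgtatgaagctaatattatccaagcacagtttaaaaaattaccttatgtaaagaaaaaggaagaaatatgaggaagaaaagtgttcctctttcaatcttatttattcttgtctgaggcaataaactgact
Cd209a: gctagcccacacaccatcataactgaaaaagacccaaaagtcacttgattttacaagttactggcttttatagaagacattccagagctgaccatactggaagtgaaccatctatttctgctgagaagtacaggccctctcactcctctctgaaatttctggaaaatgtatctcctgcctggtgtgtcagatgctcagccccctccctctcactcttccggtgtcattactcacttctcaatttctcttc
Clec7a: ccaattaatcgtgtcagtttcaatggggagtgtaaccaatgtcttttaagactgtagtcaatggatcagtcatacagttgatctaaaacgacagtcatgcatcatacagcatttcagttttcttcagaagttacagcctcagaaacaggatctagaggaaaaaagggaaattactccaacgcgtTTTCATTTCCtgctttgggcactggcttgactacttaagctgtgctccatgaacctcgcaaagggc

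Motif letters were searched on both strands of these windows and of all 32851 windows in the table. The letters TTCNNNGAA, a core shared by BCL6 and STAT sites, occurred in the Clec4a2 window and in 7.02% of all windows. The composite of PU.1 and IRF sites (GGAA and GAAA with 2 bases between) occurred in the windows of Clec7a and Clec4a1 and in 2.3% of all windows. The IRF core (GAAA repeated after 2 bases, 2.98% of all windows), AAAGGTCA (the NR4A site, 1.34%) and GAGGAAGT (PU.1, 2.44%) occurred in no window of the 8 genes. A match describes the letters and is not evidence of binding, and windows without one say nothing of the factors.

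The libraries held 46617756 to 62633123 reads in genes, so that 1 CPM stood for 47.9 to 61.8 reads, and mitochondrial transcripts took 0.569% to 0.778% of reads. Ly6c2, the gene behind the sort marker, stood between 11.49 and 12.61 log2 CPM in all 8 libraries. Bcl6 RNA did not fall in the libraries labelled Bcl6 cKO: it was 4.66 and 4.64 log2 CPM in wild type and 6.53 and 6.40 in Bcl6 cKO (log2 difference 1.81 ± 0.16 SE, n = 2 per genotype, adjusted p = 0.00234, limma). The labels do not say which exons of Bcl6 or Irf2 were removed, so reads over the whole gene do not check those labels, and every direction below rests on them. Nr4a1 RNA was lower in Nr4a1 KO by a log2 difference of -2.31 and in Irf2 KO by -2.41, and Irf2 RNA was lower in Irf2 KO by -0.56.

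In wild type monocytes the receptors spanned a wide range of levels per exon length (RPKM, reads per kb of exons per 1e6 reads). The order by mean RPKM was Clec4a3, Clec4a1, Clec4a2, Clec7a, Clec12a, Cd209a, Clec10a, Clec4e, Clec4d and Clec4n. Clec4a3 had 144 and 167 RPKM and Clec4n 1.37 and 0.816 RPKM, the top and the bottom of that order. Neighbours in the order did not overlap between the 2 libraries, except Clec4e (7.39 and 5.16 RPKM) and Clec4d (5.17 and 3.74 RPKM).

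The order changed mainly at its lower end. In Bcl6 cKO, Clec4n reached 11.8 and 18.6 RPKM, a level that overlapped those of Cd209a (14.8 and 19.8) and Clec10a (12.6 and 15.2). In Irf2 KO, Cd209a fell to 3.48 and 0.0752 RPKM, which overlapped Clec4n (0.167 and 0.342). The 5 genes at the top in wild type were also the top 5 in every knockout, with Clec7a above Clec4a2 in Irf2 KO.

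**Figure D1:**
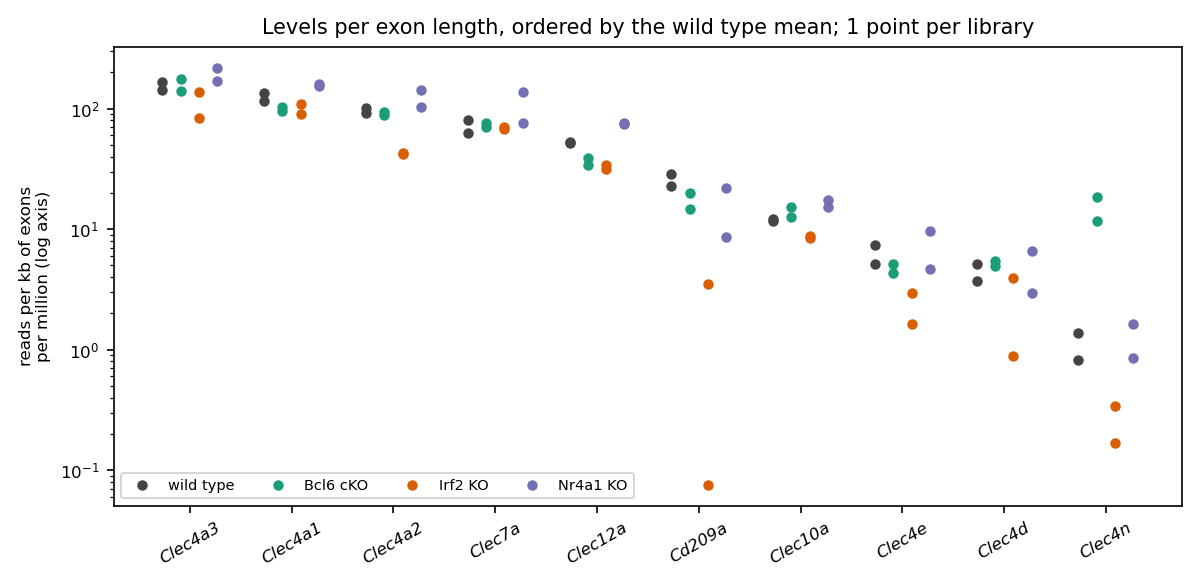
Levels of the 10 receptor genes in RPKM (reads per kb of exons per 1e6 reads, log axis), 1 point per library and coloured by genotype, ordered by the wild type mean. Clec4n in Bcl6 cKO (11.8 and 18.6 RPKM) and Cd209a in Irf2 KO (3.48 and 0.0752 RPKM) stand away from their other libraries.

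Added up, the 10 genes took 1245 and 1314 CPM in wild type, 1117 and 1171 in Bcl6 cKO, 784 and 887 in Irf2 KO, and 1615 and 1737 in Nr4a1 KO. The sums of the 4 genotypes did not overlap. They are carried by the abundant members, since leaving out Clec4n moved the Bcl6 cKO sums only to 1101 and 1145 CPM.

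Each knockout was compared with the same 2 wild type libraries, so the 3 comparisons are not independent of each other. In Irf2 KO, 6 of the 10 receptors were lower and none was higher (limma, adjusted p below 0.05 after Benjamini-Hochberg correction over 12752 genes), beside 12.3% of all genes called lower, 9.26% called higher and 21.6% called in either direction. In Bcl6 cKO, 1 was higher and 1 lower, beside 5.01% of all genes called (1.36% higher and 3.65% lower). In Nr4a1 KO, 1 was higher and none lower, beside 15.1% of all genes called and 3.94% called higher. The median log2 difference over the 10 genes was -0.93 in Irf2 KO (all genes -0.04), -0.03 in Bcl6 cKO (all genes -0.01) and 0.32 in Nr4a1 KO (all genes 0.01). In bulk RNA, fewer cells of a type and less RNA per cell cannot be told apart.

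**Figure D2:**
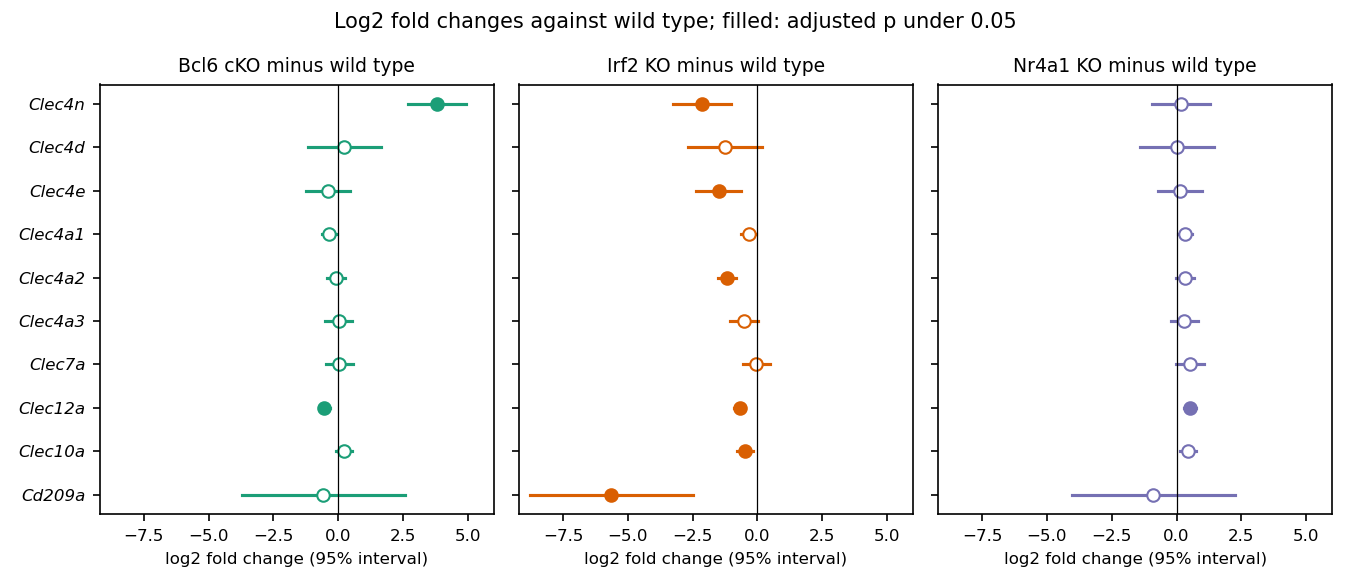
Log2 fold changes of the 10 receptor genes in each knockout against wild type with 95% intervals (limma). Filled points passed an adjusted p of 0.05: 2 in Bcl6 cKO, 6 in Irf2 KO, all on the lower side, and 1 in Nr4a1 KO.

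The receptors coupled to the FcR gamma chain changed in different ways. Clec4n, the receptor for fungal mannans, had 112 and 59 reads in wild type (0.96 and 0.21 log2 CPM), 1032 and 1380 reads in Bcl6 cKO (4.06 and 4.73), 11 and 26 reads in Irf2 KO (-2.07 and -1.04) and 61 and 111 reads in Nr4a1 KO (0.27 and 1.22). Both Bcl6 cKO libraries were far above all others and both Irf2 KO libraries below all others, while Nr4a1 KO overlapped wild type. Clec4n was 14.0-fold higher in Bcl6 cKO (log2 difference 3.81 ± 0.49 SE, adjusted p = 0.00589, limma), ranking 4 among the rises of 12752 genes. Clec4n reached the 1 CPM filter (mean 1.04 log2 CPM over 8 libraries) only through the Bcl6 cKO libraries, where it was high. Call and rank are thus not independent of that rise. Clec4n was also called with no filter. Its call was lost without Bcl6 cKO replicate 1 or replicate 2. With any 1 of the 8 libraries left out, the log2 difference lay between 3.44 and 4.18.

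In Irf2 KO, Clec4n was lower by a log2 difference of -2.14 ± 0.49 SE (adjusted p = 0.0179, limma). This call rests on few reads and was lost without wild type replicate 1 (adjusted p = 0.0934), without Irf2 KO replicate 1 (0.0947) and in the authors' deposited table (0.0902). In Nr4a1 KO the log2 difference was 0.16, with a 95% interval from -0.96 to 1.27. Of all tested genes, Bcl6 itself followed Clec4n most closely over the 8 libraries (Pearson r of log2 CPM 0.987), then Dennd1b (0.980). These r values describe 8 libraries that share 4 genotypes, of which Bcl6 cKO spans most of the range.

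**Figure D3:**
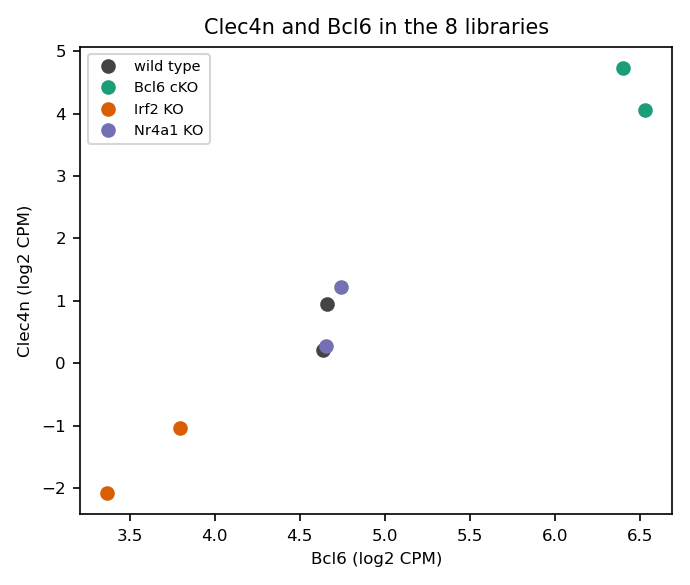
Clec4n against Bcl6 in log2 CPM, 1 point per library, coloured by genotype. The Bcl6 cKO libraries have the highest values of both genes (Bcl6 6.53 and 6.40, Clec4n 4.06 and 4.73) and the Irf2 KO libraries the lowest.

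Clec4e, the receptor for mycobacterial cord factor, had 5.20 and 4.68 log2 CPM in wild type, 4.68 and 4.43 in Bcl6 cKO, 3.01 and 3.87 in Irf2 KO, and 5.59 and 4.54 in Nr4a1 KO. Both Irf2 KO libraries were below the other 6, and Nr4a1 KO replicate 2 was below both wild type libraries. Clec4e was lower in Irf2 KO by a log2 difference of -1.501 ± 0.38 SE (adjusted p = 0.0245, limma). The call was lost without wild type replicate 1 (adjusted p = 0.119), wild type replicate 2 (0.0573) or Irf2 KO replicate 1 (0.135), and with no trend of the prior variance (0.0600). In Bcl6 cKO and Nr4a1 KO the log2 differences were -0.39 and 0.12 (adjusted p = 0.603 and 0.860). The pseudogene Gm11737 (Pearson r 0.978, 8 libraries) and Terf2ip (0.967) were the tested genes most like Clec4e.

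Clec4d, which pairs with Clec4e at the surface, had 3.05 and 2.58 log2 CPM in wild type, 2.99 and 3.12 in Bcl6 cKO, 0.50 and 2.64 in Irf2 KO, and 3.41 and 2.24 in Nr4a1 KO. Irf2 KO replicate 1 was far below every other library, whereas Irf2 KO replicate 2 lay within the wild type range. The log2 difference in Irf2 KO was -1.24 with a 95% interval from -2.67 to 0.18 (adjusted p = 0.186, limma). Without replicate 2 of Irf2 KO it was -2.31 (adjusted p = 0.0282) and without replicate 1 it was -0.17. S100a8, an abundant neutrophil and monocyte gene, was also lowest in Irf2 KO replicate 1. It stood at 7.29 log2 CPM there, against 8.78 in replicate 2 and 9.99 and 9.47 in wild type. Mpo, also on the list of neutrophil markers used here, went the other way, with 9.303 and 9.304 in Irf2 KO against 8.279 and 8.445 in wild type. The part of such cells in the Clec4d value was not tested. Over the libraries Clec4d ran most alike Clec4e among the members (Pearson r 0.857, 8 libraries).

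**Figure D4:**
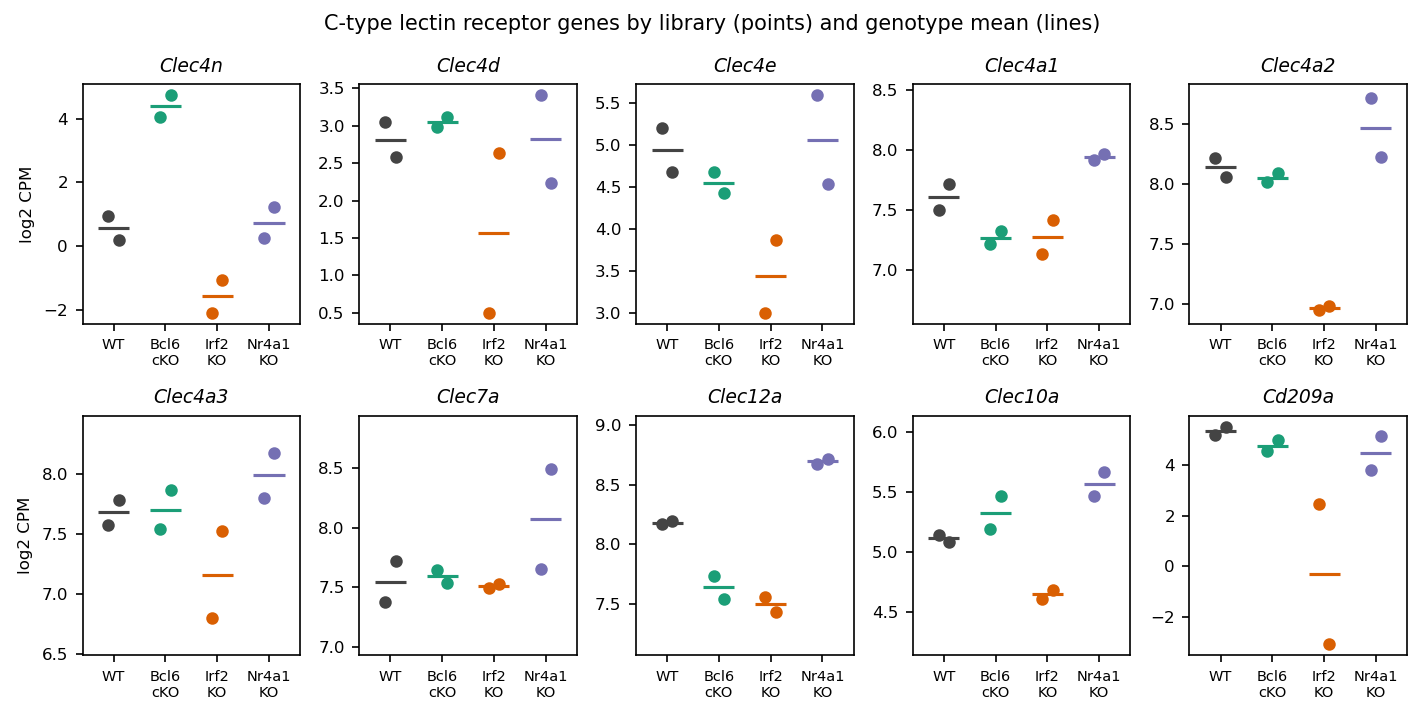
Log2 CPM of the 10 receptor genes, 1 point per library with a line at the genotype mean (n = 2 each, own axis per gene). Irf2 KO libraries lie lowest for Clec4n, Clec4e, Clec4a2, Clec4a3, Clec10a and Cd209a. Nr4a1 KO libraries lie highest for Clec12a and Clec4a1, and by a narrow margin for Clec4a2 and Clec10a.

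No neighbour of Clec4n in the cluster was called in Bcl6 cKO. Clec4d, 15.09 kb away, differed by 0.24 (95% interval -1.19 to 1.66) and Clec4a2, 85.84 kb away on the other side, by -0.09 (-0.43 to 0.25). Clec4b1, which lies between Clec4a3 and Clec4a2, differed by 0.59 (adjusted p = 0.228). Clec4n minus each of these neighbours was not tested as a difference. In Irf2 KO, all 6 receptors of the cluster were below wild type in the mean, and 3 of them were called. Clec4a4, a further gene of the cluster that is no member here, was lower by a log2 difference of -0.96 (adjusted p = 0.0193, limma), and Necap1, an endocytosis gene beside the cluster, by -0.72 (adjusted p = 0.00342). Of the 43 other tested genes within 300 kb of any member, 7 were called lower and 2 higher in Irf2 KO, 1 lower in Bcl6 cKO, and 6 lower and 3 higher in Nr4a1 KO. Over all genes 21.6%, 5.01% and 15.1% were called, so these shares are near the background.

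**Figure D5:**
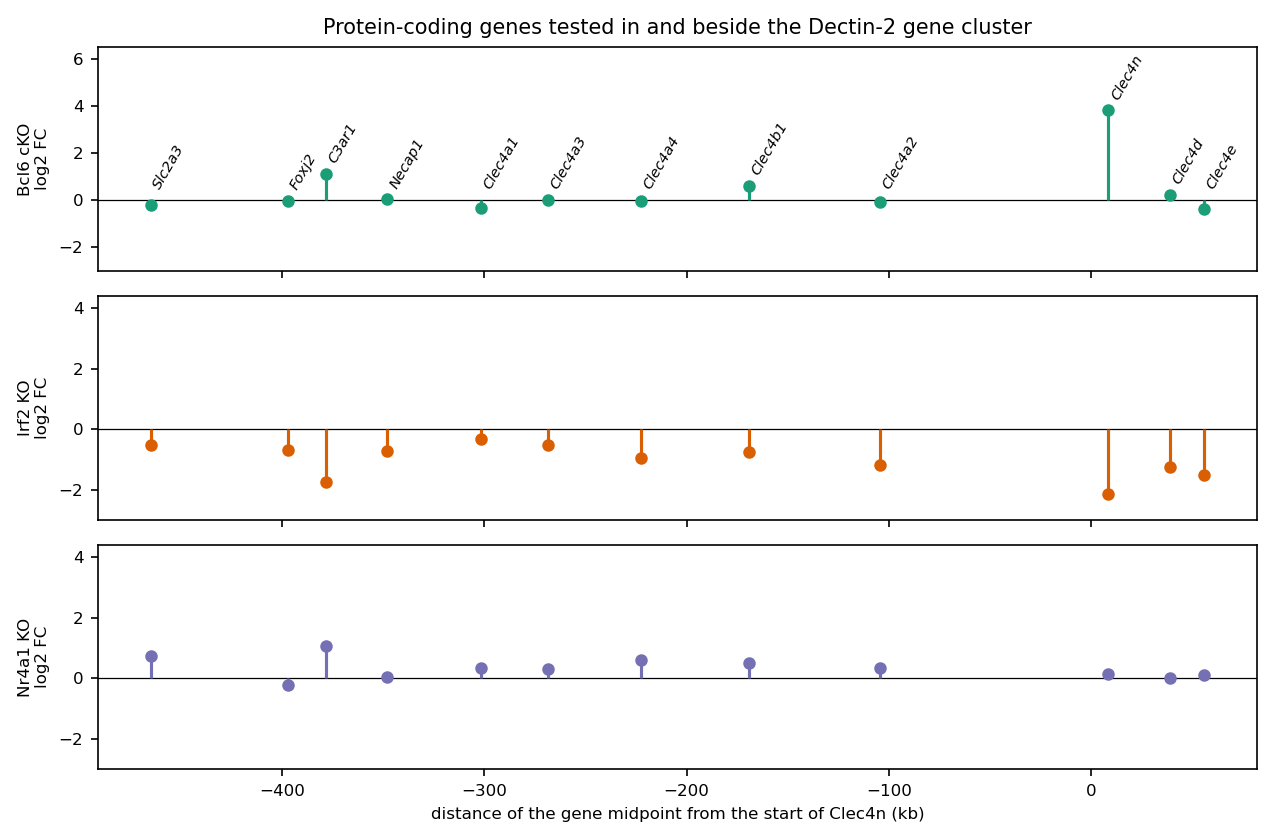
Log2 fold change against wild type of the protein-coding genes tested in and beside the receptor cluster on chromosome 6, at the distance of each gene midpoint from the start of Clec4n (kb). In Bcl6 cKO, Clec4n (3.81) stands above its neighbours Clec4d (0.24) and Clec4a2 (-0.09), and in Irf2 KO every gene drawn lies below 0.

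Among the DCIR subfamily, Clec4a2 stood out. This inhibitory receptor had 8.22 and 8.06 log2 CPM in wild type, 8.01 and 8.09 in Bcl6 cKO, 6.95 and 6.98 in Irf2 KO, and 8.72 and 8.23 in Nr4a1 KO. The Irf2 KO libraries were close to each other and more than 1 log2 unit below the other 6. Clec4a2 was 2.26-fold lower in Irf2 KO (log2 difference -1.17 ± 0.15 SE, adjusted p = 0.00236, limma), and this call held in all 19 alternatives, with the highest adjusted p at 0.0174. In the exons of Clec4a2, 6.83% of 50-base stretches also occur in other genes, and in Clec10a 9.02%, so some of their reads may be shared. The tested genes most like Clec4a2 over the 8 libraries were Fyb (Pearson r 0.988) and Baz2b (0.987).

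Clec4a1 had 7.50 and 7.72 log2 CPM in wild type, 7.22 and 7.32 in Bcl6 cKO, 7.13 and 7.42 in Irf2 KO, and 7.92 and 7.97 in Nr4a1 KO. Bcl6 cKO and Irf2 KO were below and Nr4a1 KO above both wild type libraries, yet none of the 3 differences was called (-0.34, -0.34 and 0.33, adjusted p = 0.153, 0.0817 and 0.106, limma). Clec4a3 had 7.58 and 7.79 log2 CPM in wild type, 7.54 and 7.87 in Bcl6 cKO, 6.80 and 7.52 in Irf2 KO, and 7.80 and 8.18 in Nr4a1 KO. As for Clec4d, Irf2 KO replicate 1 was well below replicate 2. The log2 difference of Clec4a3 in Irf2 KO was -0.52 (adjusted p = 0.140), and without Irf2 KO replicate 2 it was -0.89 (adjusted p = 0.0383).

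The Dectin-1 cluster genes Clec12a and Clec7a differed from each other. Clec12a, an inhibitory receptor, had 8.17 and 8.19 log2 CPM in wild type, 7.74 and 7.55 in Bcl6 cKO, 7.56 and 7.43 in Irf2 KO, and 8.68 and 8.72 in Nr4a1 KO. It was the sole member called in all 3 knockouts: both Nr4a1 KO libraries were above, and all Bcl6 cKO and Irf2 KO libraries below, wild type. Its log2 differences were -0.54 ± 0.10 SE in Bcl6 cKO (adjusted p = 0.0188, limma), -0.68 ± 0.10 in Irf2 KO (0.00340) and 0.51 ± 0.10 in Nr4a1 KO (0.00882). The Irf2 KO and Nr4a1 KO calls held in all 19 alternatives, with the highest adjusted p at 0.0258 and 0.0481. The Bcl6 cKO call was lost with no trend of the prior variance (adjusted p = 0.0919) and without any single wild type or Bcl6 cKO library (0.0795 to 0.127). Proca1 (Pearson r 0.981) and Kxd1 (0.975) had the most similar pattern over the 8 libraries.

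Clec7a, the beta-glucan receptor, had 7.37 and 7.72 log2 CPM in wild type, 7.65 and 7.54 in Bcl6 cKO, 7.49 and 7.53 in Irf2 KO, and 7.65 and 8.49 in Nr4a1 KO. All Bcl6 cKO and Irf2 KO libraries lay within the wild type range, and a single library, Nr4a1 KO replicate 2, lay apart. Its log2 difference was 0.04 in Bcl6 cKO (95% interval -0.49 to 0.58), -0.04 in Irf2 KO (-0.57 to 0.50) and 0.53 in Nr4a1 KO (-0.01 to 1.06, adjusted p = 0.171, limma). Without Nr4a1 KO replicate 1 the last was 0.95 (adjusted p = 0.00386), and without replicate 2 it was 0.10. Of the antigen-presentation genes, Cd74 (11.33 log2 CPM) and H2-Aa (8.41) were highest in Nr4a1 KO replicate 2, against 8.53 and 5.36 in replicate 1, whereas H2-Ab1 was highest in Bcl6 cKO replicate 2 (6.26 against 5.83 in Nr4a1 KO replicate 2). The part of this in the Clec7a value was not tested.

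Of the remaining receptors, Clec10a had 5.14 and 5.08 log2 CPM in wild type, 5.19 and 5.47 in Bcl6 cKO, 4.61 and 4.68 in Irf2 KO, and 5.47 and 5.67 in Nr4a1 KO. The Irf2 KO libraries were the lowest and both Nr4a1 KO libraries were above wild type. Clec10a was lower in Irf2 KO by a log2 difference of -0.47 ± 0.14 SE (adjusted p = 0.0422, limma). The call was close to the threshold and was lost under 9 of the 19 alternatives. In Nr4a1 KO the difference was 0.45 (adjusted p = 0.0599). Tmem50a (Pearson r 0.991, 8 libraries) and Rnf113a2 (0.990) had the most similar pattern.

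Cd209a had 2105 and 2318 reads in wild type (5.18 and 5.50 log2 CPM), 1445 and 1635 in Bcl6 cKO (4.55 and 4.97), 266 and 6 in Irf2 KO (2.46 and -3.07), and 701 and 1664 in Nr4a1 KO (3.78 and 5.12). All 6 knockout libraries were below both wild type libraries. The Irf2 KO libraries were the lowest, and they also differed most from each other. Cd209a was lower in Irf2 KO by a log2 difference of -5.65 ± 1.38 SE (adjusted p = 0.0227, limma), ranking 6 among the falls of 12752 genes. Without Irf2 KO replicate 2 the difference was -2.88, and without replicate 1 it was -8.41. The call was lost without wild type replicate 1 (adjusted p = 0.0770) or 2 (0.0978) and with no trend of the prior variance (0.0597). In Bcl6 cKO and Nr4a1 KO the differences were -0.58 (95% interval -3.73 to 2.56) and -0.89 (-4.03 to 2.25). These intervals use a spread shared by all 4 genotypes, which the gap between the Irf2 KO libraries widened. The SD in log2 CPM was 3.91 in Irf2 KO, 0.22 in wild type, 0.30 in Bcl6 cKO and 0.95 in Nr4a1 KO. The pattern of Cd209a was most like those of Gm37274 (Pearson r 0.982, 8 libraries) and Haao (0.979), an enzyme of tryptophan breakdown.

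Markers of other cells were set beside these values. Over all genes, 12.3% were called lower and 9.26% higher in Irf2 KO. The shares were 3.65% lower and 1.36% higher in Bcl6 cKO, and 11.2% lower and 3.94% higher in Nr4a1 KO. Of 11 tested markers of conventional and monocyte-derived dendritic cells, none was called in Irf2 KO (median log2 difference -1.73), none in Bcl6 cKO (0.16) and 1 higher in Nr4a1 KO (0.49). At an unadjusted p under 0.05 limma gave 6 lower in Irf2 KO, 1 higher in Bcl6 cKO and 5 higher in Nr4a1 KO, and limma voom called none in any of the 3. With 1 library left out the counts ran from 0 to 5 in Irf2 KO (5 without either Nr4a1 KO library), from 0 to 1 in Bcl6 cKO and from 0 to 4 in Nr4a1 KO (4 without Nr4a1 KO replicate 1). Under the other settings they ran from 0 to 5, from 0 to 4 and from 0 to 2. Their summed level was 240 and 404 CPM in wild type, 682 and 844 in Bcl6 cKO, 158 and 82.5 in Irf2 KO, and 551 and 3196 in Nr4a1 KO. The Irf2 KO sums were thus below wild type, in the same order as Cd209a between the Irf2 KO libraries. This sum leans on Cd74, which had 7712 and 13182 reads in wild type, 2707 and 897 in Irf2 KO and 123454 in Nr4a1 KO replicate 2. Dpp4 (4.245 and 3.704 log2 CPM in Irf2 KO, 3.27 and 3.967 in wild type) overlapped wild type. Cd24a (5.826 and 5.246, against 5.802 and 5.762) did so too. The other tested markers lay below wild type in both Irf2 KO libraries. Of 14 neutrophil markers, 6 were lower and 2 higher in Irf2 KO, and 2 lower and 1 higher in Bcl6 cKO. In Nr4a1 KO none was called (1 lower at an unadjusted p under 0.05 and 1 called by limma voom). Their sum ran from 3168 to 3324 CPM in wild type and from 2564 to 3514 in Irf2 KO. This sum mixes genes that moved in opposite directions. Elane had 9.605 and 9.872 log2 CPM in wild type and 10.47 and 10.71 in Irf2 KO. S100a8 had 9.988 and 9.469 in wild type and 7.285 and 8.782 in Irf2 KO. The Irf2 KO count of 8 was 4 without either wild type library and reached 11 with another library left out. The Bcl6 cKO count of 3 was 0 without any 1 of the wild type or Bcl6 cKO libraries and reached 9 with only the 2 groups compared. No dendritic cell or neutrophil marker that had a row was at 0 reads. Of 11 nonclassical monocyte markers, 7 were lower in Irf2 KO and 4 in Nr4a1 KO, while Bcl6 cKO had 1 higher and 1 lower. Nr4a1 itself, the gene that Nr4a1 KO lacks, is 1 of those 4. The Nr4a1 KO count was 2 without either wild type library, and the Bcl6 cKO count was 0 without Bcl6 cKO replicate 1 and 4 without either Irf2 KO library. Their sum was 546 and 696 CPM in wild type and 308 and 251 in Irf2 KO. Of 10 classical monocyte markers, 6 were lower in Irf2 KO, 1 was higher in Bcl6 cKO and 2 were higher in Nr4a1 KO. Among the scarcer lineages in Irf2 KO, 3 of 6 plasmacytoid dendritic cell markers were lower and 1 higher, 3 of 5 B cell markers lower, 4 of 5 erythroid markers lower and 1 higher, 1 of 3 macrophage markers lower, and the 1 tested T and NK cell marker higher. With 1 library left out the plasmacytoid count fell to 1 (wild type replicate 1 or Irf2 KO replicate 1), the erythroid count to 2 (wild type replicate 2) and the T and NK cell count to 0 (wild type replicate 1 or either Irf2 KO library). Spib, a plasmacytoid dendritic cell marker, was at 0 reads in Irf2 KO replicate 2, and Ebf1, a B cell marker, in Irf2 KO replicate 1. The part of these cell types in the receptor values was not tested.

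The knockouts were also compared directly, without the wild type libraries in the contrast. Between Irf2 KO and Nr4a1 KO, 8 of 10 receptors were lower in Irf2 KO and none higher, beside 9.94% of all genes called lower and 22.3% in either direction. Clec12a differed by -1.20 ± 0.10 SE (adjusted p = 0.000119, limma) and Clec4a2 by -1.51 ± 0.15 (0.000299). The uncalled members were Clec4d (-1.25, adjusted p = 0.185) and Clec7a (-0.56, adjusted p = 0.120). The calls of Clec4a1, Clec4a2, Clec12a and Clec10a held in all 18 alternatives that could be run.

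Between Irf2 KO and Bcl6 cKO, 3 of 10 receptors were lower in Irf2 KO, beside 5.68% of all genes called lower and 9.55% in either direction. Clec4n was 61.9-fold lower in Irf2 KO (log2 difference -5.95 ± 0.49 SE, adjusted p = 0.000965, limma), a call that held in all 17 alternatives that tested it. Clec4a2 (-1.09) and Clec10a (-0.68) were also lower. The Clec4a2 call held in 16 of 18 alternatives and was lost without either Bcl6 cKO library. The Clec10a call held in 13 of 18 and was lost without any 1 of the Bcl6 cKO or Irf2 KO libraries (highest adjusted p = 0.150, limma). Clec12a, lower than wild type in both, differed by -0.14 between them (95% interval -0.37 to 0.08). Between Bcl6 cKO and Nr4a1 KO, 1 receptor was higher and 2 lower in Bcl6 cKO, beside 5.75% of all genes called (4.97% higher and 0.776% lower). These were Clec4n (3.65, adjusted p = 0.00304), Clec12a (-1.05, adjusted p = 0.000574) and Clec4a1 (-0.67, adjusted p = 0.0136). The Clec12a call held in 18 of 18 alternatives, the Clec4n call in 16 of 17 (adjusted p = 0.0578 without Bcl6 cKO replicate 2) and the Clec4a1 call in 15 of 18 (highest adjusted p = 0.112, without Bcl6 cKO replicate 1).

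Genes that carry the signal of these receptors fell in Irf2 KO in many cases. Of 16 signalling genes, 12 were lower and none higher in Irf2 KO (median log2 difference -0.50), 2 were lower in Bcl6 cKO (-0.11) and 5 lower in Nr4a1 KO (-0.25), against medians of -0.04, -0.01 and 0.01 over all genes. The shares of all genes called lower were 12.3%, 3.65% and 11.2%. The Irf2 KO count was 7 when Irf2 KO replicate 1 or wild type replicate 2 was left out. The Bcl6 cKO count ran from 0 to 2 with 1 library left out, at 0 when this was Bcl6 cKO replicate 1 or wild type replicate 1, and the Nr4a1 KO count was 2 without wild type replicate 2. The Src-family kinase Fgr (-1.36), the calcium-regulated factor Nfatc2 (-1.17) and the kinase Prkcd (-0.88) were among those lower in Irf2 KO. Fcer1g, the adaptor of Clec4n, Clec4d and Clec4e, had 11.01 and 11.07 log2 CPM in wild type and 10.67 and 10.75 in Irf2 KO (log2 difference -0.33, adjusted p = 0.0280, limma), and Syk differed by -0.66 (adjusted p = 0.00657). These 2 were named after their values were seen. Card9 (0.14, adjusted p = 0.803) and Malt1 (-0.01, adjusted p = 0.944) were not called there.

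Fgr was lower in Bcl6 cKO too (-0.83, adjusted p = 0.0101, limma), and Vav1 (-0.80), Bcl10 (-0.56) and Lyn (-0.55) were lower in Nr4a1 KO. Of 4 phosphatases that inhibitory receptors recruit, Ptpn6 (SHP-1, -0.64) and Inpp5d (SHIP, -0.52) were lower in Irf2 KO, and none was called in Bcl6 cKO (1 lower at an unadjusted p under 0.05) or Nr4a1 KO (1 higher and 1 lower), nor by limma voom there.

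Cytokine and other response genes of these receptors were sparsely expressed in the monocytes: 9 of 16 had a row and 7 were tested. Il6 and Ptgs2 had a row but did not reach the filter, so their differences were not tested. Il6 had 0 and 0 reads in wild type, 93 and 74 in Bcl6 cKO, 0 and 6 in Irf2 KO, and 8 and 9 in Nr4a1 KO. Ptgs2 had 56 and 5 reads in wild type and 37 and 58 in Bcl6 cKO. Of the 7 tested, 4 were lower and none higher in Irf2 KO: Cxcl2 (-1.89), Il1rn (-1.78), Il1b (-1.25) and Nlrp3 (-0.54). This count was 1 without either wild type library or Irf2 KO replicate 1, 2 without any of Irf2 KO replicate 2 and the Bcl6 cKO libraries, and 2 with limma voom. In Bcl6 cKO Il1rn was higher (1.08, adjusted p = 0.0249, limma), and in Nr4a1 KO Il1b was higher (1.87, adjusted p = 0.00776). The first call was lost without either wild type library or Bcl6 cKO replicate 1, and the second without wild type replicate 2.

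The other C-type lectin genes that were tested went both ways in Irf2 KO, and the counts called were near the shares of all genes called. Of 41 other genes of the superfamily, 25 had a row and 16 were tested. Of the genes left out by the filter, Cd209d had 130 and 120 reads in wild type and 2 and 0 in Irf2 KO. Cd72 (251 and 166, then 16 and 1) and Ly75 (97 and 43, then 7 and 18) were also lower. Asgr2 (46 and 66, then 25 and 8) was lower too, and Selp (13 and 13, then 63 and 207) was higher. The rest of those left out overlapped wild type in Irf2 KO, and none of these differences was tested. Over all genes, 21.6% were called in Irf2 KO, 15.1% in Nr4a1 KO and 5.01% in Bcl6 cKO. Of the 16 tested, 2 were higher in Irf2 KO, Klra2 (1.31) and Cd93 (1.01), and 2 lower, Clec2i (-1.09) and Clec4a4 (-0.96), with a median of -0.13. That count of 4 was 2 without either wild type library or Irf2 KO replicate 1. In Nr4a1 KO Clec2i (0.76) and Cd93 (0.70) were higher and none was lower. That count of 2 was 1 without either wild type or either Bcl6 cKO library and 5 without Nr4a1 KO replicate 1. In Bcl6 cKO limma and limma voom called none of the 16, with 3 higher and none lower at an unadjusted p under 0.05. That count of 0 became 2 without either Nr4a1 KO library and ran from 0 to 2 under the other settings.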

How the data were processed

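RNA-seq of 8 libraries (4 genotypes, 2 each) used 10 ng of total RNA and a full-length cDNA kit, with fragments amplified for 12 to 15 cycles and read as paired 150-base reads, per the labels' protocols. The submitters' processing notes name build mm10, the aligner STAR, the counters featureCounts (Subread) and Salmon, bcl2fastq and limma, without order or settings. The deposited table gave log2 values per library on the CPM scale. The authors' values undo to whole reads in all libraries (100% within 0.01 of a whole read) under the formula log2((reads + 0.5) / (scaled total + 1)) per 1e6. The authors' table also held each knockout's log2 fold change from wild type, its limits, its p-value before and after adjustment, a deposited signed linear fold (a score), and deposited annotation columns, and these comparisons served only as an alternative. Of 13789 rows, 45 repeats were left out.

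All 8 libraries entered 1 fit of 4 group means (limma 3.58.1, R 4.3.3), with moderated variances that follow a trend and 4 residual and 4.66 prior degrees of freedom. It covered the 12752 genes whose mean log2 value over the 8 libraries reached that of 1 CPM, with Benjamini-Hochberg adjustment per comparison at 0.05. Intervals are at 95%. Groups of 2 are assumed to vary alike. The procedure was tested on simulated data in which few genes were changed. It recovered 10.4%, 17.9% and 8.96% of planted 1.5-fold changes in Bcl6 cKO, Irf2 KO and Nr4a1 KO. For 2-fold changes it recovered 50.7%, 29.9% and 44.8%, so an uncalled gene may still differ. Of the calls, 7.07%, 5% and 4.35% were false. Members and gene lists were chosen with earlier results of these data known. Named beyond the members are the 3 knockout targets, up to 4 called genes per list with the largest change, tested neighbours within 300 kb, and the 2 genes most correlated with each called member. Some genes that this rule would name are not reported here. RPKM used GENCODE M21 exon lengths. Alternatives were no trend, quantile normalization, no filter or 4 CPM, library weights, median centring, a replicate block, only the 2 groups compared, limma voom, a GC content and length correction, the authors' test, and leaving out each library. Plots used Python 3.11.15 and matplotlib 3.10.9.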

Additional observations from a re-analysis of the deposited data

How the results depend on the processing

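The counts of receptors called moved by more than 1.5 times under some alternatives. Against wild type, the Bcl6 cKO count of 2 became 1 with no trend of the prior variance and 1 with the 4 CPM filter, which drops Clec4n, and ran from 0 to 2 with 1 library left out. The Irf2 KO count of 6 became 3 with no trend and ran from 2 (without wild type replicate 1) to 7 with 1 library left out. The Nr4a1 KO count of 1 became 3 with quantile normalization, 3 with median centring and 2 with the GC content and length correction, and ran from 1 to 2 with 1 library left out. Between knockouts, with only the 2 groups compared, the count became 4 for Irf2 KO against Nr4a1 KO and 5 for Irf2 KO against Bcl6 cKO. With 1 library left out these counts ran from 5 to 9 and from 1 to 5, and for Bcl6 cKO against Nr4a1 KO from 1 to 4. The cause was not tested.

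Some small, uncalled differences changed sign. With the GC content and length correction, Clec4a3 (-0.16) and Clec7a (-0.0463) in Bcl6 cKO, Clec4d in Nr4a1 KO (-0.16) and Clec7a between Irf2 KO and Bcl6 cKO (0.0026) did so. With median centring Clec7a in Irf2 KO was 0.0656, and with quantile normalization Clec4a1 between Irf2 KO and Bcl6 cKO was -0.023. With 1 library left out, the ranges spanned 0 in Bcl6 cKO for Clec4a3 (-0.15 to 0.18) and Clec7a (-0.13 to 0.22), in Irf2 KO for Clec7a (-0.21 to 0.14), and in Nr4a1 KO for Clec4n (-0.32 to 0.63), Clec4d (-0.57 to 0.59) and Clec4e (-0.40 to 0.65). They did so for Clec4a1 between Irf2 KO and Bcl6 cKO (-0.14 to 0.15), and between Bcl6 cKO and Nr4a1 KO for Clec4d (-0.36 to 0.81), Clec4e (-1.04 to 0.0168) and Cd209a (-0.36 to 0.98). Of 567 member values against wild type, 515 kept direction and call, 26 lost a call, 11 gained one and 15 changed sign. Between knockouts the numbers were 482, 31, 17 and 7 of 537.

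Replicate numbers did not pair the samples: differences between replicates correlated at -0.003 to 0.183 between genotypes. With the replicate number as a block, the counts were 2, 8 and 1 against wild type, and 8 (Irf2 KO against Nr4a1 KO), 4 (Irf2 KO against Bcl6 cKO) and 3 (Bcl6 cKO against Nr4a1 KO). In Irf2 KO the block added Clec4a1 (adjusted p = 0.0428) and Clec4a3 (0.0257). The background moved too. All genes called in Bcl6 cKO numbered 639, but 259 with no trend, 411 with the GC content and length correction and 33 without Bcl6 cKO replicate 1. In Irf2 KO 2755 became 1076 without wild type replicate 2, and in Nr4a1 KO 1925 became 1054 with only the 2 groups compared. Centring shifted log2 differences by 0.07, 0.10 and 0.13, and the share of calls that were higher went from 27.1% to 40.7% in Bcl6 cKO, from 42.9% to 59.3% in Irf2 KO and from 26.1% to 50.7% in Nr4a1 KO. Limma voom was run with the authors' scaled totals, not with TMM factors. Low reads limit Clec4n and Cd209a in Irf2 KO, where 6 to 266 reads stood behind each value.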
